A study of Neurospora crassa OR74A with 12 samples.

Results

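Nonsense-mediated mRNA decay (NMD) rests on 3 core factors, the UPF proteins, and the results below follow the mRNAs of their genes in the filamentous fungus Neurospora crassa. The members were taken by gene identifier, upf-1 as NCU04242, upf-2 as NCU05267 and upf-3 as NCU03435. No measured value enters that rule, but earlier results of these data were known when it was set. They are 3 of the 10685 genes in the deposited table, and all 3 were among the 7878 genes that passed the filter on low counts and were tested. RNA was sequenced from mycelium of upf-1KO, in which upf-1 was deleted, and of the WT strain, either with 20 mM H2O2 or without treatment. The groups are upf-1KO with H2O2, WT with H2O2, untreated upf-1KO and untreated WT, with 3 libraries from independent pools in each, 12 libraries in all. The labels give OR74A for every sample, whereas the methods of the study describe its strains as sharing the bd allele of ras-1. The study also used a WT strain and upf knockouts without that allele in a control experiment. Which of these strains were sequenced is not given in the sources used here. The methods describe the upf knockouts as hph (hygromycin resistance) knockouts made in a bd host whose ku70 gene had been mutated (ku70RIP). Whether the sequenced upf-1KO still carried that mutation is not given in the sources used here, and if it did, the loss of upf-1 and the mutation of ku70 cannot be told apart. The length of the H2O2 treatment before RNA was taken is not given in the sources used here.

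NMD removes mRNAs on which a ribosome stops too early, together with a set of normal mRNAs that carry features such as upstream reading frames or long 3′ untranslated regions. UPF1 is an RNA helicase with ATPase activity that acts at the terminating ribosome, UPF2 is an adaptor that binds UPF1 and stimulates it, and UPF3 joins UPF2 and, in animals, links the complex to proteins left at exon junctions. In yeast and in mammals, loss of any of the core factors stabilizes NMD targets, and in mammals several mRNAs of NMD factors are themselves NMD targets. For N. crassa, the study cites earlier work in which the mRNA of upf-1 was more stable when upf-2 was deleted. In N. crassa, upf-1 is also known as period-6 (prd-6), a gene first found through its effect on the period of the circadian clock, and the RefSeq table gives that symbol for NCU04242.

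The upf-1 gene lies on chromosome V at 5327537 to 5332820 of the NC12 assembly, and the table annotates it as 1 exon block of 5284 bases. The upf-2 gene lies on chromosome IV at 5532449 to 5537507, with 4767 bases in 5 exon blocks. The upf-3 gene lies on chromosome II at 727364 to 730533, with 3112 bases in 2 exon blocks. No other annotated gene overlaps any of them. The study designed a primer pair for RT-qPCR on each mRNA, and these pairs are shown because they are the sequences by which the 3 transcripts can be measured without sequencing. They are printed as listed by the study, and their positions within the genes were not located here.
upf-1 forward: tctcttgaacctaaacggcg
upf-1 reverse: aagctggagaagggtaagttg
upf-2 forward: cttgtcctgaactatgatctccg
upf-2 reverse: tttctcactctttgtccaccc
upf-3 forward: agggcgagaaagacaaagag
upf-3 reverse: ccaccgccatctttatccttc
The primers are 20 to 23 bases long with a GC content of 47.6% to 52.4%.

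Between 5891672 and 7703271 reads were counted on genes in each library. The 10 most abundant genes took 12.5% to 18.5% of the reads in upf-1KO with H2O2, 18.8% to 29.8% in WT with H2O2, and 10.1% to 12.2% in the untreated libraries of both strains. The factors of the TMM scaling (trimmed mean of M-values) were 0.802 to 1.12 in upf-1KO with H2O2, 0.481 to 0.602 in WT with H2O2 and 1.30 to 1.53 in the untreated libraries. Replicate 2 of upf-1KO with H2O2 stood apart from its group. Across genes, its Spearman correlation with the other libraries of the group was 0.873 to 0.879, whereas those had 0.990 with each other, and the log2 fold changes of the upf genes that rest on this library are therefore also given without it. The hyphal genes hex-1, which encodes the Woronin body protein, and cat-3, which encodes a catalase, were detected in all 12 libraries, but not at even levels. Mean normalized counts of hex-1 were 22080 in upf-1KO with H2O2, 22970 in WT with H2O2, 12880 in untreated upf-1KO and 26760 in untreated WT. Those of cat-3 were 2432, 2382, 2965 and 730 in the same order. The study reports that UPF proteins repress cat-3 and that H2O2 raises it, so its level cannot be read as hyphal content. The summed level of 6 conidiation genes, nearly all of it from the hydrophobin gene eas, was 76100 to 116100 normalized counts in upf-1KO with H2O2, 9918 to 10170 in WT with H2O2, 56730 to 61440 in untreated upf-1KO and 66990 to 81760 in untreated WT. The other conidiation genes did not follow eas throughout. In WT, con-6 (2.69 normalized counts with H2O2 and 9.04 without), con-13 (0.593 with H2O2 and 1.83 without) and fl (264 with H2O2 and 661 without) also had lower means with H2O2, whereas con-8 (11.6 with H2O2 and 2.62 without) and con-10 (12.4 with H2O2 and 3.13 without) had higher ones, and con-6 and con-13 were at 0 in at least 1 library of WT with H2O2. Whether a change of cell types has a part in the values of the upf genes was not tested, and fewer cells of a type and less RNA per cell cannot be told apart in bulk RNA.

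Normalized counts are reads scaled with the TMM factors to the mean library, and division by gene length in kb allows the 3 genes to be compared with each other. With H2O2, the mRNAs of the 3 factors in WT were spread out. upf-1 was highest at 221 ± 32.9 normalized counts per kb, followed by upf-2 at 76.9 ± 8.07 and upf-3 at 41.8 ± 9.98 (SD, n = 3 each). Neighbours in this order did not overlap between libraries. In untreated WT, the levels were nearly equal and the order was another one, with upf-3 at 122 ± 9.11, upf-1 at 106 ± 4.61 and upf-2 at 98.1 ± 1.33 normalized counts per kb (SD, n = 3 each). There too neighbours did not overlap, but the highest and the lowest gene differed by only 1.24-fold, the mean ratio of upf-3 to upf-2 within a library.

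In upf-1KO with H2O2, upf-2 averaged 50.8 ± 1.59 and upf-3 averaged 45.2 ± 37.3 normalized counts per kb, and the reads left on upf-1 came to 77.8 ± 25.6 (SD, n = 3 each). The 3 upf-2 libraries of that group lay within the range of upf-3, which ran from 23.0 to 88.3, its highest value being that of replicate 2. In untreated upf-1KO, upf-2 averaged 128 ± 13.3 and upf-3 averaged 125 ± 6.36 normalized counts per kb (SD, n = 3 each), with overlapping libraries, and the upf-1 reads came to 31.4 ± 1.77.

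**Figure D1:**
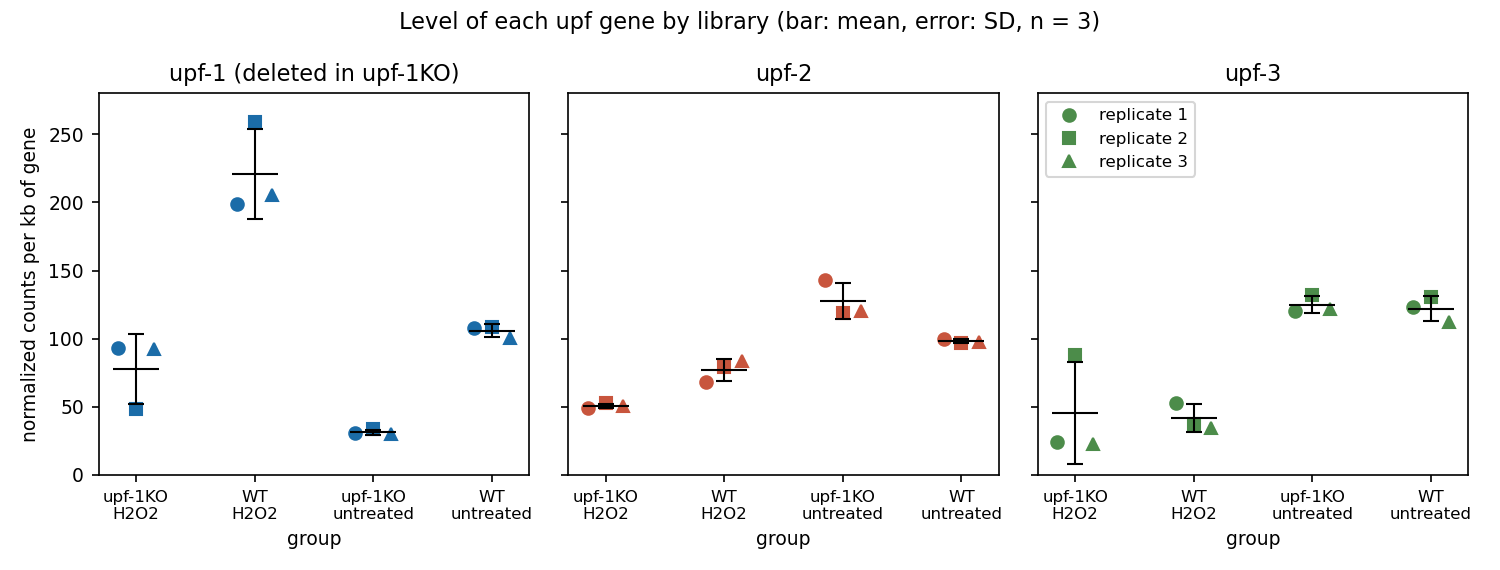
Normalized counts per kb of each upf gene in each library, by group, with replicates as separate symbols, the mean as a bar and the SD as the error (n = 3). In WT, upf-1 was higher with H2O2 (221) than without (106) and upf-3 was lower (41.8 with H2O2 and 122 without), while replicate 2 of upf-1KO with H2O2 lies apart from its group in upf-1 and upf-3.

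The mRNA of the helicase gene upf-1 was more abundant with H2O2 than without in WT, when reads were scaled with TMM factors. It had 1050, 1367 and 1086 normalized counts in WT with H2O2, against 572, 575 and 531 in untreated WT. The groups did not overlap. The log2 fold change was 1.06 (standard error 0.23, 95% interval 0.57 to 1.56, edgeR quasi-likelihood test with Benjamini-Hochberg adjusted p = 0.00189), a rise of 2.09-fold that lay above 81.1% of all genes. This direction depends on the scaling. Relative to library totals alone, upf-1 had 81.7, 85.0 and 82.7 RPM (reads scaled to the library total) in WT with H2O2, against 98.7, 97.1 and 89.3 in untreated WT, and the log2 fold change was -0.19 (edgeR, adjusted p = 0.293, where the alternatives ranged from 7.82e-06 to 0.293). On that scale the median of all genes was -1.36, compared with -0.13 with TMM factors. The 4 scalings tried were TMM factors, DESeq2's size factors, library totals and the count of the beta-tubulin gene Bml, and upf-1 stood 1.17 to 1.20 above the median gene under each. A scaling moves all genes by nearly the same amount, so this distance could hardly change and is no check on the direction.

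The mRNA of the adaptor gene upf-2 fell with H2O2 in upf-1KO. It had 235, 250 and 242 normalized counts in upf-1KO with H2O2, against 681, 568 and 574 in untreated upf-1KO. The libraries with H2O2 were close to each other and all lay below the untreated ones. The log2 fold change was -1.33 (standard error 0.15, 95% interval -1.65 to -1.001, edgeR adjusted p = 4.35e-05) and -1.35 without replicate 2 with H2O2, and 10.5% of all genes fell further. After removal of the trend with gene length it was -0.47 (adjusted p = 0.0823, where the alternatives ranged from 7.17e-18 to 0.0823).

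In WT, the difference of upf-2 was smaller and did not pass the threshold. It had 324, 379 and 397 normalized counts in WT with H2O2, against 475, 462 and 466 in untreated WT. Each library with H2O2 was below each untreated one, yet the log2 fold change was -0.35 (standard error 0.15, 95% interval -0.67 to -0.03, adjusted p = 0.0598 from edgeR). It passed in 5 of 21 alternatives, with the same sign under library totals (-1.59), the beta-tubulin count as library size (-0.73), at least 10 counts in every library (-0.41) and without replicate 2 of upf-1KO with H2O2 (-0.36), and with the opposite sign (0.73) when the trend with gene length was removed. The adjusted p ranged from 2.3e-05 to 0.273.

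The difference between the strains in this change was tested as an interaction. The log2 change of upf-2 with H2O2 in upf-1KO minus that in WT was -0.97 (standard error 0.21, 95% interval -1.43 to -0.52, adjusted p = 0.0206 from edgeR), and upf-2 was the only 1 of the 3 genes to pass, where 6.71% of all genes tested did (3.86% higher and 2.86% lower in upf-1KO). Relative to the median gene the value was -1.12 to -1.10 under the 4 scalings, a distance that scaling hardly moves and that is no check on the call. Without replicate 2 of upf-1KO with H2O2 it was -0.99. The call held in 12 of 20 alternatives. It was lost with library totals (-0.44, adjusted p = 0.224), with the beta-tubulin count as the library size (-1.12, adjusted p = 0.0545), and on leaving out any 1 of the 6 untreated libraries (-1.02 to -0.88), while the adjusted p over the alternatives ranged from 9.41e-06 to 0.224.

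The mRNA of upf-3 fell with H2O2 in both strains. In upf-1KO it had 76.1, 275 and 71.5 normalized counts with H2O2, against 375, 412 and 380 without treatment. Replicate 2 with H2O2, the library that stood apart, had more than the others of its group and was still below the untreated libraries. The log2 fold change was -1.45 (standard error 0.42, edgeR adjusted p = 0.0136) with all libraries and -2.40 (standard error 0.19) without this replicate. The call was lost when only the libraries of upf-1KO were fitted (-1.53, adjusted p = 0.0609, where the alternatives ranged from 6.32e-07 to 0.0609).

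In WT, upf-3 had 165, 117 and 107 normalized counts with H2O2, against 383, 407 and 350 without treatment. The groups did not overlap, and the highest library with H2O2 was far below the lowest untreated one. This corresponds to a log2 fold change of -1.54 (standard error 0.43, 95% interval -2.48 to -0.60, adjusted p = 0.00931 from edgeR), and it was negative and past the threshold under all 21 alternatives. Because the spread was estimated over all groups, the standard error fell to 0.16 without replicate 2 of upf-1KO with H2O2. The fall of 2.91-fold rested on few reads, 43 to 93 in WT with H2O2 and 410 to 529 in untreated WT.

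Whether upf-3 responded differently in the strains depended on replicate 2. The interaction was 0.09 (standard error 0.59, 95% interval -1.20 to 1.38, edgeR adjusted p = 0.942) with all libraries and -0.86 (adjusted p = 0.0309) without it, the lowest adjusted p among alternatives that ran up to 1.0. For the reads at the upf-1 locus the interaction was 0.24 (standard error 0.32, 95% interval -0.45 to 0.94, adjusted p = 0.655 from edgeR), and 0.50 (adjusted p = 0.0808, where the alternatives ranged from 0.0536 to 0.999) without the same replicate.

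Read against the whole table, 3 of 3 upf genes were called in upf-1KO, where 48.8% of all genes tested were called with H2O2, and 2 of 3 in WT, where 56.6% were called. In upf-1KO the value of upf-1 holds only the reads left at its deleted locus, so that upf-2 and upf-3 are the intact genes there. For the higher direction the background was 26% in upf-1KO and 26.5% in WT, and for the lower direction it was 22.8% in upf-1KO and 30.2% in WT. What differed among the upf genes were the directions and sizes. The comparisons share the untreated libraries of each strain with the comparisons between strains given below. By western blot, the study reported lower levels of the UPF proteins with H2O2 in WT, and protein is not measured here. For the upf mRNAs, by RT-qPCR normalized to a tubulin gene, it reported no change with H2O2 in WT. The rise of upf-1 with TMM factors and the fall of upf-3 in WT differ from that RT-qPCR report. With the beta-tubulin count as library size, the log2 fold changes in WT were 0.68 for upf-1, -0.73 for upf-2 and -1.85 for upf-3. Why the mRNA measurements differ was not tested.

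Because each library contributes reads to all 3 genes, the ratio of 2 of them does not depend on how libraries are scaled. The ratio of upf-2 to upf-1, per kb, was 0.341, 0.307 and 0.405 in WT with H2O2, against 0.920, 0.891 and 0.973 in untreated WT. The adaptor mRNA was thus 2.66-fold lower relative to the helicase mRNA with H2O2, a log2 difference of -1.41. The ratio of upf-3 to upf-1 was 0.267, 0.146 and 0.168 in WT with H2O2, against 1.14, 1.20 and 1.12 in untreated WT, a log2 difference of -2.62 or 6.16-fold. The groups did not overlap for either ratio. The two-sided exact permutation test gave p = 0.1 for both, which is the smallest value that 3 against 3 libraries allow, and 0.15 after Benjamini-Hochberg adjustment over the 6 ratio comparisons.

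The ratio of upf-3 to upf-2 does not involve the deleted gene and was compared in both strains. In WT it was 0.783, 0.474 and 0.413 with H2O2, against 1.23, 1.35 and 1.15 without treatment, without overlap (log2 difference -1.21, exact permutation p = 0.1, adjusted 0.15). In upf-1KO it was 0.496, 1.68 and 0.453 with H2O2, against 0.845, 1.11 and 1.01 without treatment, and the groups overlapped through replicate 2 (log2 difference -0.44, exact permutation p = 0.4, adjusted 0.48). Without that replicate the difference was -1.05.

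Between the strains, the ratio of upf-3 to upf-2 was lower in each untreated upf-1KO library than in any untreated WT library (log2 difference -0.34, exact permutation p = 0.1, adjusted 0.15). With H2O2, the strains overlapped (log2 difference 0.43, exact permutation p = 0.6, adjusted 0.6), and the difference was -0.17 without replicate 2.

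**Figure D2:**
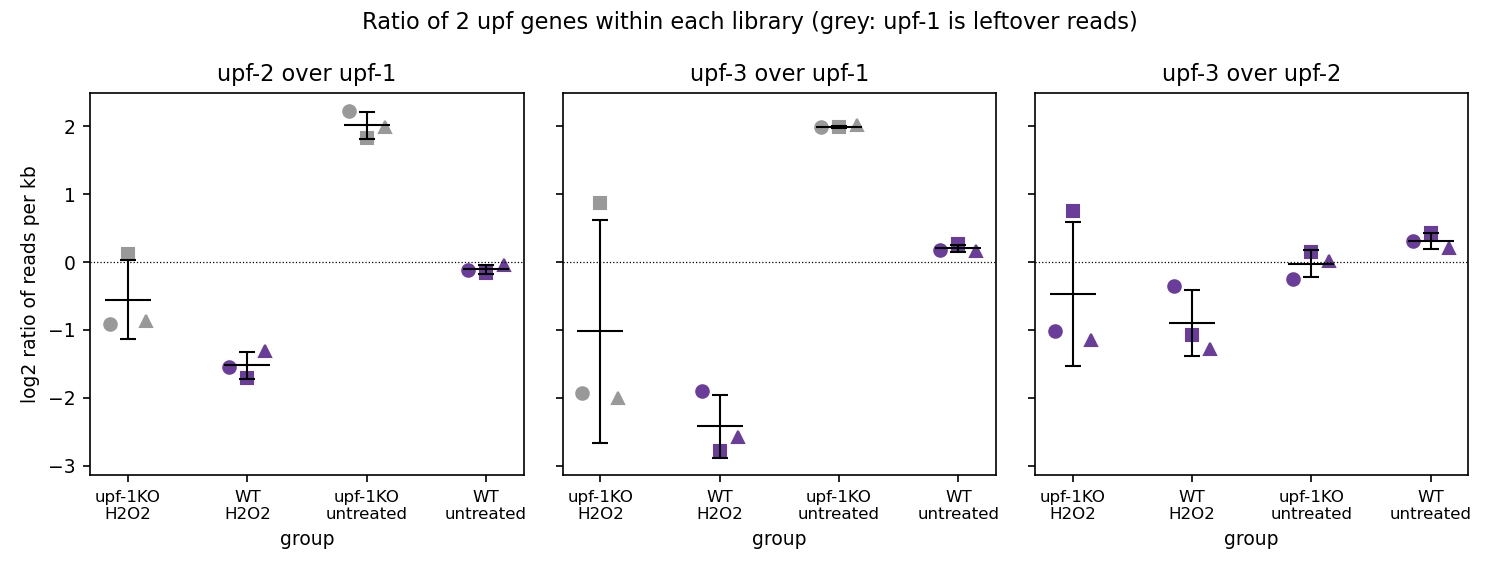
Log2 ratio of reads per kb between 2 upf genes within each library, by group, with the mean as a bar and the SD as the error (n = 3), and grey where upf-1 stands for the reads left at the deleted locus. In WT, the log2 ratio of upf-3 to upf-1 averaged -2.42 with H2O2 and 0.20 without, and replicate 2 of upf-1KO with H2O2 lies above the other libraries of its group in every panel.

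The mRNAs of both partners were present in every upf-1KO library. Without H2O2, upf-2 had 681, 568 and 574 normalized counts in upf-1KO, against 475, 462 and 466 in WT. Each upf-1KO library was above each WT library, and the log2 fold change was 0.38 (standard error 0.15, 95% interval 0.06 to 0.70), which did not pass the threshold (adjusted p = 0.106 from edgeR). It did pass in 9 of 21 alternatives, among them the fit of the untreated libraries alone (0.50, adjusted p = 4.64e-05), and the adjusted p ranged from 4.64e-05 to 0.357. For upf-3 the untreated strains overlapped, at 375, 412 and 380 normalized counts in upf-1KO and 383, 407 and 350 in WT. Its log2 fold change was 0.03 (standard error 0.41, 95% interval -0.86 to 0.92, adjusted p = 0.965 from edgeR). That standard error rests on a spread estimated over all 12 libraries and not on the untreated ones alone. It was 0.14 without replicate 2 of upf-1KO with H2O2 (log2 fold change 0.03). With only the untreated libraries fitted it was 0.078 (log2 fold change 0.16, adjusted p = 0.0968 from edgeR).

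With H2O2, upf-2 was lower in upf-1KO than in WT, at 235, 250 and 242 normalized counts in upf-1KO and 324, 379 and 397 in WT. The groups did not overlap. In the fit, the log2 fold change was -0.60 (standard error 0.15, 95% interval -0.92 to -0.27, adjusted p = 0.0129 from edgeR) and -0.62 without replicate 2 of upf-1KO, but with library totals it was 0.13 (adjusted p = 0.544), and the call was also lost with the beta-tubulin count as the library size (-0.05, adjusted p = 0.858) and when only the libraries with H2O2 were fitted (-0.58, adjusted p = 0.192), the alternatives ranging from 5.26e-05 to 0.858. Relative to the median gene, upf-2 stood at -0.77 to -0.75 under each of the 4 scalings, a distance that scaling hardly moves and that does not settle the direction. For upf-3, the log2 fold change of upf-1KO against WT with H2O2 was 0.12 (standard error 0.43, adjusted p = 0.844 from edgeR) with all libraries, and -0.82 (adjusted p = 0.00703, the lowest among alternatives that ran up to 1.0) without replicate 2 of upf-1KO.

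The deleted gene itself checks the labels. With H2O2, 374, 257 and 375 reads were counted on upf-1 in upf-1KO, against 591, 501 and 588 in WT. Without H2O2 there were 232, 232 and 236 reads in upf-1KO, against 741, 748 and 622 in WT. All upf-1KO libraries lay below all WT libraries of the same treatment, but none was near 0. The fitted level in upf-1KO was 35.2% of WT with H2O2 and 29.7% without, and these shares moved with the processing. With library totals they were 56.3% with H2O2 and 34.1% without, and with the beta-tubulin count as library size 48.1% with H2O2 and 48.2% without. Leaving out replicate 2 of upf-1KO with H2O2 gave 42.0% with H2O2, a log2 fold change of -1.25. The log2 fold change was -1.51 with H2O2 (standard error 0.23, edgeR adjusted p = 0.00105), where 2.06% of all genes were lower still, and -1.75 without (standard error 0.23, adjusted p = 0.000357), where 0.838% were. Between the strains, 27.5% of all genes tested were called with H2O2 and 15.1% without. Of the 3 upf genes, 2 were called with H2O2 (upf-1 and upf-2) and 1 without (upf-1), each in the lower direction. The call of upf-1 was set by its deletion, so that only upf-2 and upf-3 can be read against these shares. By direction, 15.5% of all genes were higher and 12% lower with H2O2, and 10.4% were higher and 4.71% lower without.

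The reads left at the locus were more numerous with H2O2. They came to 491, 255 and 487 normalized counts in upf-1KO with H2O2, against 161, 177 and 160 in untreated upf-1KO. The groups did not overlap, and replicate 2 was again nearest to the untreated libraries. The log2 fold change was 1.30 (standard error 0.23, 95% interval 0.80 to 1.81, adjusted p = 0.000769 from edgeR), and 1.56 (standard error 0.14) without replicate 2. It was positive and past the threshold in all 21 alternatives, including library totals (0.53). Its distance above the median gene, which scaling hardly moves, was 1.14 to 1.23 under the 4 scalings, compared with 1.17 to 1.20 for upf-1 in WT. From which transcripts these reads come was not tested. How they lie along the gene, and how much of the gene was removed in the knockout, were not analysed here.

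The genes on either side of upf-1 are close, with 130 bases to NCU04241 and 171 bases to NCU04243. Neither differed past the threshold between the untreated strains, with log2 fold changes of 0.14 for NCU04241 (edgeR adjusted p = 0.632) and 0.25 for NCU04243 (adjusted p = 0.326). With H2O2, both were higher in upf-1KO than in WT, by 0.99 for NCU04241 (edgeR adjusted p = 0.00263) and 0.56 for NCU04243 (adjusted p = 0.0241), where upf-1 was lower. Relative to untreated libraries, NCU04241 fell in upf-1KO (-1.04, edgeR adjusted p = 0.000494) and in WT (-1.89, adjusted p = 9.06e-06). NCU04243 changed by 0.21 in upf-1KO and -0.10 in WT, neither past the threshold. In upf-1KO, with TMM factors, the reads at upf-1 thus rose while those of NCU04241 fell. Whether reads of a neighbour or of the inserted cassette were counted on upf-1 was not tested.

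The nearest neighbours of the other upf genes also differed from them. For upf-2, NCU05266 at 712 bases had log2 fold changes with H2O2 of -0.52 in upf-1KO (edgeR adjusted p = 0.00973) and -0.94 in WT (adjusted p = 0.000201), the larger value being in WT, whereas that of upf-2 was in upf-1KO. For upf-3, the gene tng at 308 bases changed by 0.56 in upf-1KO and 0.08 in WT, and NCU03433 at 2814 bases rose by 1.56 in upf-1KO and 1.41 in WT.

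Scaling, gene length and sample choice moved the sizes of the H2O2 changes. In both strains upf-1, which in upf-1KO stands for the reads left at its locus, had the highest log2 fold change of the 3 genes under each of the processings plotted, and upf-3 was below upf-2 in WT under each of them. In upf-1KO the order of upf-2 and upf-3 was not stable. It turned with the beta-tubulin count as library size (-1.85 for upf-2 and -1.81 for upf-3), without replicate 1 with H2O2 (-1.46 for upf-2 and -1.33 for upf-3) and without replicate 3 with H2O2 (-1.48 for upf-2 and -1.31 for upf-3). Longer genes tended to have lower log2 fold changes with H2O2 (Spearman's rho across genes, which are no replicates, -0.424 in upf-1KO and -0.434 in WT). Bml itself, which encodes beta-tubulin and is a common reference for RT-qPCR, had log2 fold changes with H2O2 of 0.60 in upf-1KO (edgeR adjusted p = 0.0345) and 0.41 in WT (adjusted p = 0.118), and of -0.70 in untreated upf-1KO against untreated WT (adjusted p = 0.0453). The 3 upf genes are all longer than the median gene of 2209 bases, upf-1 most of all. After that trend was removed, upf-1 stood higher, at 2.34 in upf-1KO and 2.22 in WT, and upf-3 remained below 0, at -1.15 in upf-1KO and -0.91 in WT.

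**Figure D3:**
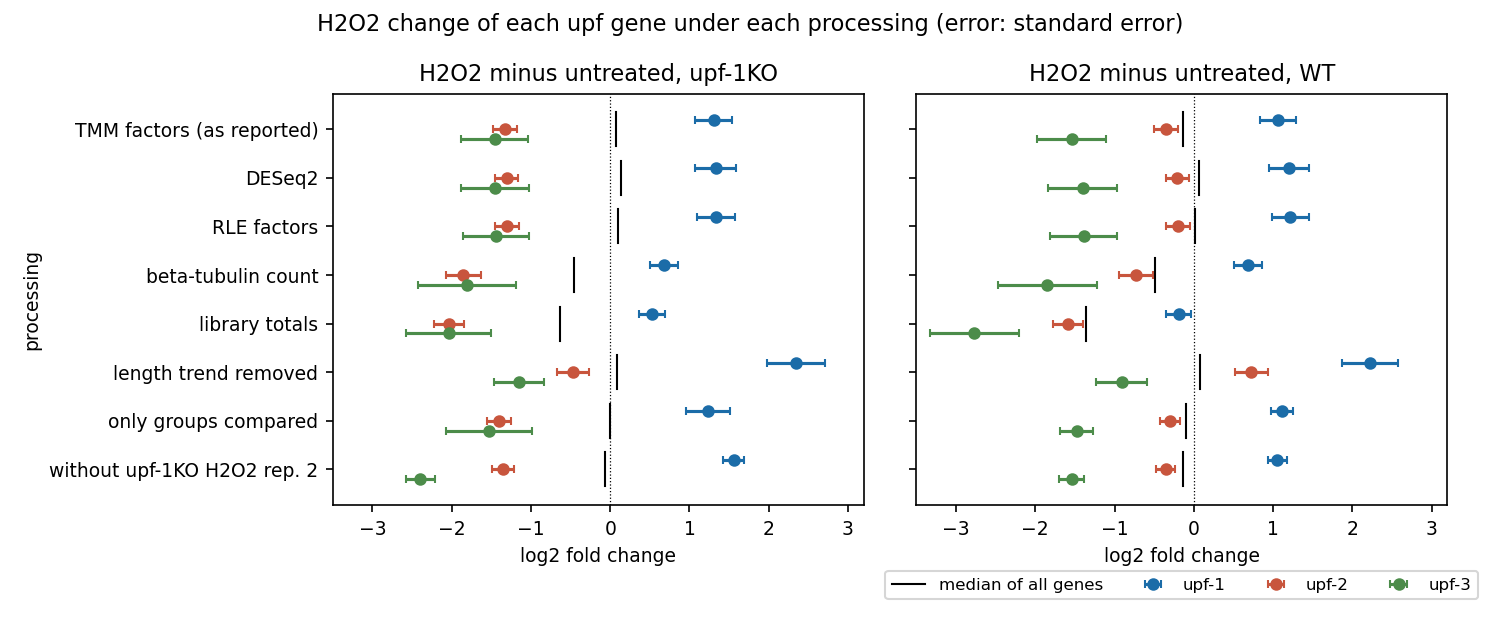
Log2 fold change of each upf gene with H2O2 against untreated, in upf-1KO and in WT, under 8 ways of processing, with the standard error as a bar and the median of all genes as a black tick. With library totals the median moves to -0.64 in upf-1KO and -1.36 in WT and the 3 genes move with it. The distance from that median of upf-1, which in upf-1KO is the reads left at its locus, is 1.14 to 1.23 in upf-1KO over the 4 scalings. A scaling moves all genes nearly alike, so this distance is no check on a direction.

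**Figure D4:**
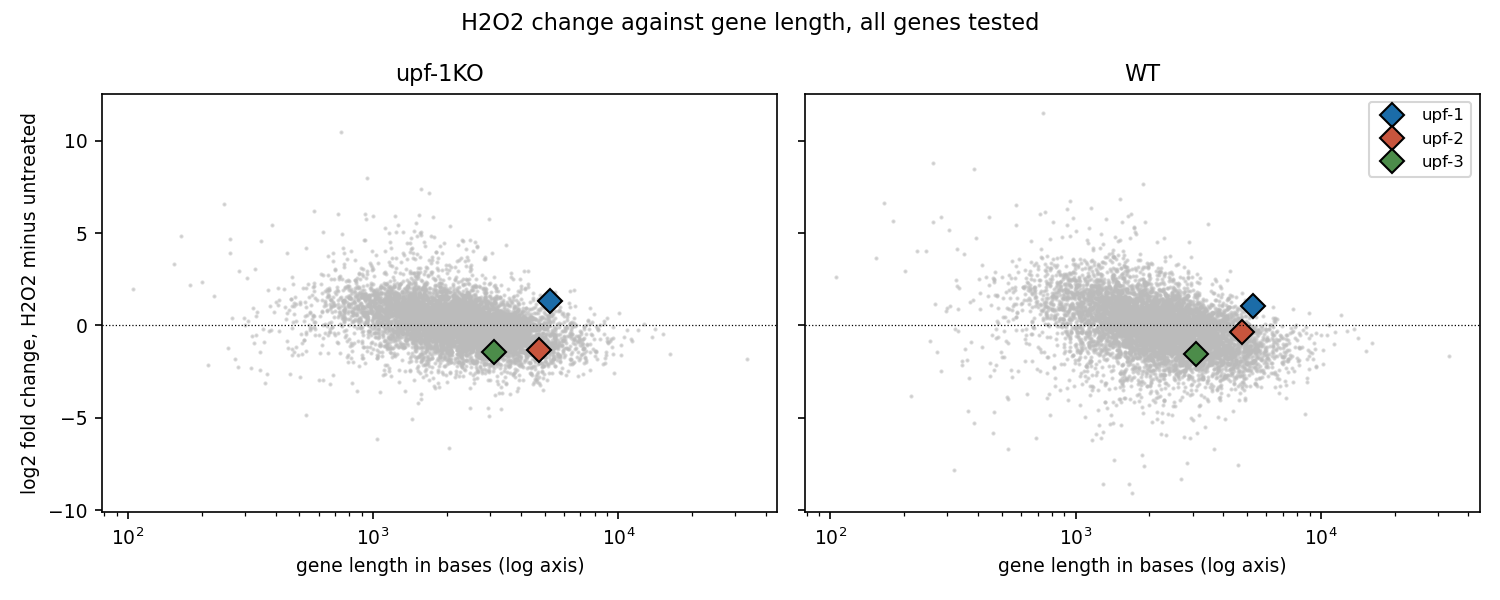
Log2 fold change with H2O2 against gene length (log axis) for the 7878 genes tested, in upf-1KO and in WT, with the 3 upf genes as diamonds. The grey cloud falls with length (Spearman's rho -0.424 in upf-1KO and -0.434 in WT), upf-1 lies at its upper edge for a gene of 5284 bases, and upf-3 lies low for a gene of 3112 bases.

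The patterns of the 3 genes over the libraries were not alike. The measure was the root mean square difference of log2 normalized counts after each gene's mean was removed, over genes that averaged 100 normalized counts or more. For upf-1, over the 6 WT libraries, the closest of 5448 genes were NCU05521 (0.0719), NCU02548 (0.0753) and ota (0.0768), whose product is ornithine aminotransferase. Among genes with a symbol, des (0.0935) and nuo20.9 (0.0985), a subunit of mitochondrial complex I, came next. Against upf-1, upf-2 ranked 2740 (0.714) and upf-3 ranked 4688 (1.33), so that most genes tracked upf-1 more closely than upf-3 did.

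For upf-2, over all 12 libraries and 5606 genes, the closest genes were NCU09746 (0.155), NCU01724 (0.171) and NCU01279 (0.178), and among genes with a symbol dak-1 (0.207), stk-9 (0.248) and polh (0.251). The gene dak-1 had log2 fold changes with H2O2 of -1.39 in upf-1KO and -0.32 in WT, beside -1.33 in upf-1KO and -0.35 in WT for upf-2. For upf-3, the closest were NCU02747 (0.169), NCU10282 (0.189) and NCU02411 (0.190), and among genes with a symbol stk-40 (0.214), crf2-1 (0.216) and aod-5 (0.234). The root mean square difference between upf-2 and upf-3 was 0.662, which placed upf-3 at rank 2185 for upf-2 and upf-2 at rank 1067 for upf-3. Libraries of 1 group share their treatment, and replicate 2 of upf-1KO with H2O2 entered these values.

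Of 49 symbols for genes of the exon junction, cap binding, decapping, exonuclease, exosome and deadenylation machinery, only 1 was found in the RefSeq table, ccr4 (NCU07779), a catalytic subunit of the CCR4-NOT deadenylase. It had 660 to 869 normalized counts in upf-1KO with H2O2, 871 to 1125 in WT with H2O2, 890 to 1080 in untreated upf-1KO and 1277 to 1424 in untreated WT. Its log2 fold change with H2O2 was -0.41 in upf-1KO (standard error 0.16, edgeR adjusted p = 0.0482) and -0.46 in WT (standard error 0.16, adjusted p = 0.0253), so that 1 of 1 gene was called lower in each strain, where 22.8% of all genes tested were called lower in upf-1KO and 30.2% in WT and the median of all genes was 0.08 in upf-1KO and -0.13 in WT. Both calls lay near the threshold and were lost with DESeq2's size factors in edgeR (-0.39, adjusted p = 0.0544 in upf-1KO and -0.31, adjusted p = 0.105 in WT). Only 3 alternatives were run for ccr4, namely these factors, DESeq2 and library totals. The call held in 2 of them in upf-1KO. In WT it was also lost with DESeq2 (-0.32, adjusted p = 0.0865) and held only with library totals (-1.69). The adjusted p ranged from 0.0028 to 0.0544 in upf-1KO and from 9.59e-05 to 0.105 in WT.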

How the data were processed

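RNA from mycelium was sequenced in 12 libraries, 3 in each of 4 groups. The authors mapped reads with HISAT2 2.2.1 to the NC12 assembly and deposited, for each gene, the count of reads from featureCounts (Subread 2.0.1) without normalization, and FPKM values computed from the same counts. Whether counting used the strand is not given in the sources used here. Per the file headers, the table also holds gene lengths and coordinates, which were used as given. The authors' FPKM values were used only to check the ratios between genes, which differed by at most 5.68e-10 (log2).

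The counts were fitted with edgeR 4.0.16 in R 4.3.3 (TMM factors, filterByExpr, glmQLFit and glmQLFTest), all 12 libraries together and 1 mean a group. Genes were called at a Benjamini-Hochberg adjusted p under 0.05 over 7878 genes. Standard errors were derived from the F statistic. The pools are the replicates, and edgeR p-values rest on the spread between them, estimated for each gene over all 4 groups. This is not the spread of the compared groups alone, and replicates differed more with H2O2 than without. Fitted alone, the groups with H2O2 gave 291 genes called between strains instead of 2165. The untreated groups fitted alone gave 4376 instead of 1192. Ratios were compared in Python 3.11.15 with scipy 1.17.1 by two-sided exact permutation tests. The fit was tested on simulated counts with known changes. These were drawn for every group from the means of untreated WT, with 1 dispersion a gene. The simulation therefore did not mimic a broad shift of expression with H2O2 or a library that stands apart. Patterns were compared with a pseudocount of 1 and a minimum mean of 100 normalized counts.

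The alternatives were DESeq2 1.42.0, its size factors in edgeR, library totals, the beta-tubulin count as library size, no filter, at least 10 counts in every library, a fit of the compared groups alone, a block for the replicate number, removal of the length trend (loess, span 0.5), and each library left out. Named genes are the upf genes, their nearest neighbours, the 3 genes most like each (and the 3 with a symbol), called members of the decay list, and beta-tubulin. The symbols pan-2 and pan-3 of the decay list were not used, since in N. crassa they name genes of pantothenate synthesis. The members and lists were chosen with earlier results of these data known.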

Additional observations from a re-analysis of the deposited data

Results flagged for a closer look

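The change of upf-2 with H2O2 passed the test of a difference between the strains, though not under every processing. The log2 fold change in upf-1KO minus that in WT was -0.97 (standard error 0.21, adjusted p = 0.0206 in the edgeR interaction test over all genes). All 3 libraries with H2O2 lay below all 3 untreated libraries in each strain, with log2 fold changes of -1.33 in upf-1KO and -0.35 in WT. The difference stayed past the threshold in 12 of 20 alternatives. It was lost with library totals, with the beta-tubulin count as library size and on leaving out any 1 of the 6 untreated libraries (adjusted p from 9.41e-06 to 0.224 in edgeR and DESeq2 over the alternatives).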

How the results depend on the processing

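Each log2 fold change of a upf gene was recomputed under 9 settings (8 for the interaction) and with each of the 12 libraries left out, and each ratio with FPKM and with each of its 6 libraries left out. The rise with H2O2 of the reads left at the upf-1 locus in upf-1KO and the fall of upf-3 in WT kept their direction and their call throughout. So did the lower upf-1 reads in upf-1KO than in WT, which follow from the deletion. Library totals gave log2 fold changes of -0.19 for upf-1 and -1.59 for upf-2 with H2O2 in WT, 0.13 for upf-2 between strains with H2O2 and -0.44 for its interaction. With the beta-tubulin count as library size, upf-2 had -0.73 with H2O2 in WT, 1.07 between untreated strains, -0.052 between strains with H2O2 and -1.12 for the interaction. With at least 10 counts in every library, upf-2 had -0.41 with H2O2 in WT and 0.47 between untreated strains. Without the length trend, upf-2 had 0.73 with H2O2 in WT and -0.47 in upf-1KO. With only the groups compared, upf-3 had -1.53 with H2O2 in upf-1KO, and upf-2 had 0.50 between untreated strains and -0.58 between strains with H2O2. DESeq2 gave upf-2 an adjusted p under the threshold between untreated strains (0.38). With 1 library left out, upf-2 ranged from -0.36 to -0.19 with H2O2 in WT, from 0.29 to 0.50 between untreated strains and from -1.27 to -0.88 for the interaction, and upf-3 ranged from -0.82 to 0.31 between strains with H2O2 and from -0.86 to 0.16 for the interaction. The ratio of upf-3 to upf-2 between strains with H2O2 ranged from -0.17 to 0.77. The lowest values of upf-3 and of this ratio are those without replicate 2 of upf-1KO with H2O2. The causes were not tested. The number of genes called between untreated strains was 1192, with 2435 (beta-tubulin), 4376 (only these groups) and 713 to 2853 (1 library left out). Between strains with H2O2 it was 2165, with 4371 (library totals), 291 (only these groups) and 1430 to 2869. For the interaction it was 529, with 940 (DESeq2), 1201 (library totals), 328 (replicate block) and 169 to 1328. The replicate block changed no call of a upf gene (interaction of upf-2 -0.97, adjusted p = 0.0492 from edgeR). Deviations of same-numbered libraries correlated at -0.248 to 0.222 and 0 to 3 of 6 libraries in each comparison correlated best with their own number, so that the numbers were not taken to pair libraries. Few reads limit upf-3 with H2O2, where 1 library of 3 decides its mean in upf-1KO.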
